A study of Homo sapiens with 6 samples.

Results

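Long intergenic noncoding RNAs that carry a LINC symbol were examined in undifferentiated H7 cells, a line of human embryonic stem cells (hESCs), with and without S6K1. A LINC RNA was included where its symbol consists of LINC and a number, or is LINC-ROR, and where its raw read count averaged at least 50 over the 6 libraries, so that the RNAs were chosen by their measured mean count. Of 2102 LINC symbols in a count table of 61155 symbols, 111 met this rule, and 938 had no count in any library. The comparison was between 3 libraries of wild-type (WT) H7 cells and 3 libraries of S6K1-/- H7 cells, in which CRISPR/Cas9 with guides against exons of RPS6KB1, the gene of the kinase S6K1, had been used. All S6K1-/- libraries came from clone #1, so that genotype and clone cannot be told apart. The sample labels instead name a knockdown and a time of week 5, while the methods describe undifferentiated cells, and the methods were followed. The labels do not say whether the libraries of a group came from separate cultures, so the p-values measure the spread between these libraries, which may be technical.

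LINC RNAs are transcripts longer than typical small RNAs that have no long reading frame. They were named for lying between protein-coding genes, although in current annotations some overlap the body of one. Most are expressed at a low level and in few tissues, and hESCs have a set of their own, of which several contain sequence of the endogenous retrovirus family HERV-H. LINC-ROR, named as a regulator of reprogramming, and LINC00458 are well-known examples from pluripotent cells. S6K1 is a kinase downstream of mTOR that phosphorylates ribosomal protein S6 and takes part in the control of translation and growth.

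Across the 6 libraries the LINC RNAs made up a small part of the transcriptome, of similar size in each library. The libraries held 21896698 to 24473013 counts in total, of which the 111 LINC RNAs took between 0.126% and 0.131%. Their summed level was 1279 ± 28.2 CPM (counts scaled to a common library size of 1e6) in WT and 1281 ± 11.5 CPM in S6K1-/- cells (SD, n = 3 each). Mean counts ran from 50.5 to 4680 with a median of 130, and 48 LINC RNAs averaged under 100 counts while 5 averaged 1000 or more. The 10 most abundant held 46.7% of all counts of the group. Replicates were tight, with a median coefficient of variation of 8.27% in WT and 6.81% in S6K1-/- libraries. Mitochondrial genes took 8.63% to 8.78% of the counts in WT libraries, 9.51% and 9.74% in S6K1-/- replicates 1 and 2 and 8.54% in S6K1-/- replicate 3, and the part of this in the LINC values was not tested.

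The cells were checked against the targeted gene and stem cell markers. RPS6KB1 had 831, 791 and 777 counts in WT and 464, 464 and 438 in S6K1-/- libraries. It was lower by 0.75 on the log2 scale, so transcripts of the gene were still counted in the clone. Of 10 pluripotent stem cell markers, 1 fell, the DNA methyltransferase gene DNMT3B (log2 fold change −0.35), and the summed level of the list was 7468 to 7634 CPM in WT and 6997 to 7089 CPM in S6K1-/- libraries. The core factors did not pass the test, with log2 fold changes of −0.04 for POU5F1, 0.05 for NANOG and −0.04 for SOX2. A mesenchyme list of 6 genes summed to 86.6 to 89.9 CPM in WT and 24.5 to 28.9 CPM in S6K1-/- libraries, almost all of it COL1A1. Both tested genes of this list fell, COL1A1 by 1.79 and PDGFRB by 1.34 on the log2 scale, while LUM, DCN, COL3A1 and TWIST1 had at most 3 counts in every library. Of 6 retina markers 2 were tested, and the eye field gene SIX6 was lower (log2 fold change −1.57). Of 8 markers of neuroectoderm and neurons 6 were tested, with PAX6 higher (log2 fold change 0.76) and DCX lower (−0.54). None of the 5 tested markers of mesendoderm and endoderm or of the 2 of amnion and trophoblast was called. KRT7 (log2 fold change −0.82, edgeR adjusted p = 0.00103) and FOXA2 (−0.88, edgeR adjusted p = 0.00108) were just past the threshold. Of the tested markers in these lists only MIXL1 was above 0 (0.24, edgeR adjusted p = 0.0449). The amnion and trophoblast list summed to 5.60 to 7.20 CPM in WT and 3.72 to 4.09 CPM in S6K1-/- libraries. The part of these other genes in the LINC values was not tested, and in bulk RNA fewer cells of a type and less RNA per cell cannot be told apart.

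Of the 111 LINC RNAs, 6 were lower and 7 were higher in S6K1-/- than in WT hESCs at an adjusted p under 0.001, the study's threshold. The lower ones were LINC00458, LINC01139, LINC02700, LINC01356, LINC01943 and LINC00882. The higher ones were LINC00664, LINC02506, LINC00665, LINC01234, LINC02495, LINC00992 and LINC02505. Over all 19521 genes tested 3.96% were called in either direction, 2.54% lower and 1.42% higher, and among the genes with a mean of at least 50 counts 4.52% were called, 2.82% lower and 1.7% higher. The 13 LINC RNAs were 11.7% of the group. Because the count rule used the same libraries, 11 LINC RNAs entered with 1 group's mean under 50, and 5 of these were called, namely LINC01139, LINC01943, LINC00882, LINC02495 and LINC00992. With a mean of at least 50 required in both groups, 3 of 100 were lower and 5 higher. The median log2 fold change was 0.02 over the LINC RNAs and −0.0024 over all genes tested, and 76 of the LINC RNAs differed by less than 0.25 on the log2 scale.

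**Figure D1:**
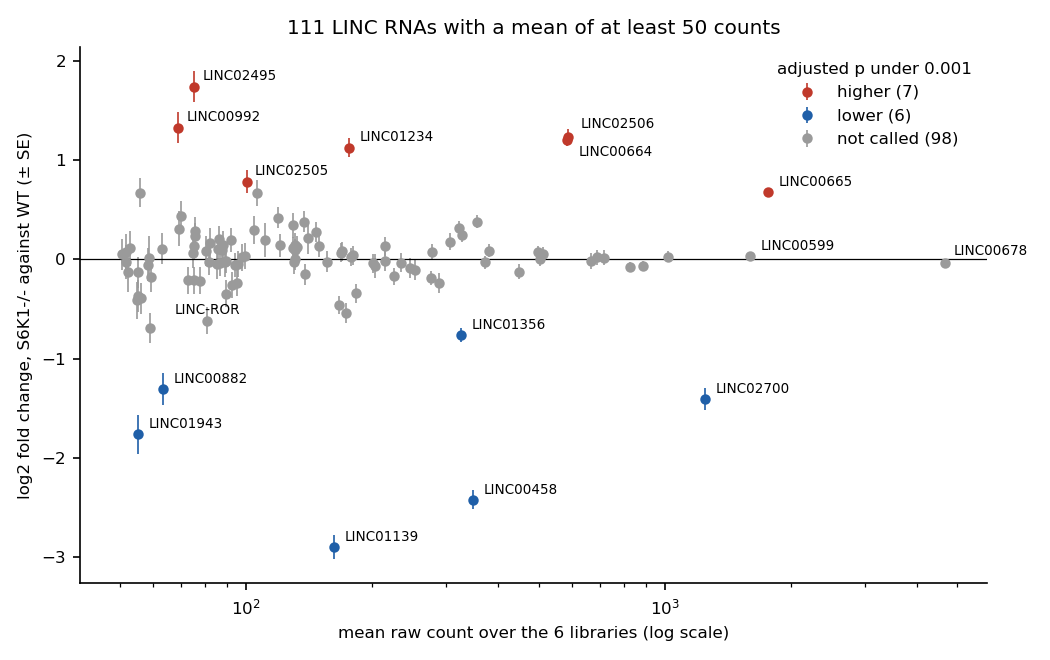
Each point is 1 of the 111 LINC RNAs, with its mean raw count over the 6 libraries on a log axis and its log2 fold change of S6K1-/- against WT, bars being the standard error of the fit. The 13 called LINC RNAs, in blue and red, are spread from a mean of 55.3 counts (LINC01943) to 1764 (LINC00665), while the most abundant one, LINC00678, lies at −0.04.

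Among the LINC RNAs known from stem cells, LINC00458 fell the most. This RNA is specific to hESCs and has been described as a partner of SMAD2/3. LINC00458 (chr13:53950255-54270397, minus strand) had 541, 616 and 620 counts in WT and 95, 112 and 111 in S6K1-/- libraries. Every S6K1-/- library was far below every WT library. The level was 24.7 ± 2.26 CPM in WT and 4.61 ± 0.530 CPM in S6K1-/- cells (SD, n = 3 each), which was 5.35-fold lower. The log2 fold change was −2.42 with a standard error (SE) of 0.10 (edgeR adjusted p = 1.41e-10).

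LINC01356 (chr1:112820170-112850643, minus strand), another stem cell LINC RNA, showed a smaller decrease. Its counts were 422, 416 and 413 in WT and 251, 247 and 210 in S6K1-/- libraries. The WT values were almost equal, and the groups did not overlap. The log2 fold change was −0.76 (SE 0.07, edgeR adjusted p = 2.58e-06). An antisense neighbour, LINC01357, overlaps its exons by 607 bases and had between 16 and 30 counts per library (log2 fold change −0.16, edgeR adjusted p = 0.731).

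The other stem cell LINC RNAs did not pass the test. LINC00678 (chr11:27617626-27634627, minus strand) was the most abundant LINC RNA and took 15.1% to 16.1% of the counts of the group in each library. It had 4844, 4955 and 4729 counts in WT and 4739, 4654 and 4160 in S6K1-/- libraries, with overlapping groups. The levels of 201 ± 2.31 and 196 ± 5.49 CPM (SD, n = 3 each) gave a log2 fold change of −0.04 with an SE of 0.04 (edgeR adjusted p = 0.561). LINC-ROR (chr18:57054558-57072119, minus strand) had 91, 79 and 85 counts in WT and 70, 76 and 65 in S6K1-/- libraries. All 3 S6K1-/- values of LINC-ROR were below the lowest WT value, by a narrow margin, and the log2 fold change was −0.21 (SE 0.13, edgeR adjusted p = 0.333). LINC01108, which is enriched in pluripotent cells, had 571, 488 and 482 counts in WT and 510, 550 and 473 in S6K1-/- libraries (log2 fold change 0.05, edgeR adjusted p = 0.694). For LINC01194 the counts were 682, 643 and 771 in WT and 692, 705 and 642 in S6K1-/- libraries (log2 fold change 0.02, edgeR adjusted p = 0.911). Of the 8 symbols on the list of stem cell LINC RNAs, 6 were included here, and of these 2 were lower and 0 higher. The remaining symbols were under the count minimum. LINC00261, an RNA next to FOXA2 that is known from endoderm, had 22, 36 and 19 counts in WT and 16, 9 and 8 in S6K1-/- libraries (log2 fold change −1.15, edgeR adjusted p = 0.0283), and FOXA2 itself had a log2 fold change of −0.88 (edgeR adjusted p = 0.00108). LINC02381 averaged 14 counts.

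The strongest decrease of the 111 was that of LINC01139, also called LINK-A, which has been described in cancer cells as a binder of AKT and of the lipid PIP3. LINC01139 met the count rule only through the WT libraries, where it is high, so nothing is read from its rank. LINC01139 (chr1:238476542-238486060, minus strand) had 268, 288 and 307 counts in WT and 39, 39 and 33 in S6K1-/- libraries. Its S6K1-/- values were nearly identical to each other and far under the WT values. The level was 12.0 ± 1.13 CPM in WT and 1.60 ± 0.0761 CPM in S6K1-/- cells (SD, n = 3 each), 7.44-fold lower, with a log2 fold change of −2.90 (SE 0.12, edgeR adjusted p = 2.30e-10).

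LINC02700 (chr11:94638045-94652884, plus strand) was the most abundant of the LINC RNAs that fell. It had 2049, 1457 and 1988 counts in WT and 707, 664 and 622 in S6K1-/- libraries. WT replicate 2 was lower than the other WT libraries, and still well above the highest S6K1-/- library. The level was 76.3 ± 14.8 CPM in WT and 28.8 ± 1.20 CPM in S6K1-/- cells (SD, n = 3 each), with a log2 fold change of −1.40 (SE 0.11, edgeR adjusted p = 2.63e-07). Per kilobase of exonic length the level of LINC02700 in WT was 24.7 CPM, against a median of 1.32 CPM per kilobase over the 106 LINC RNAs with a lncRNA model.

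LINC01943 and LINC00882 were near the count minimum, and met it only through the WT libraries, where they are high. LINC01943 (chr2:87439523-87459044, minus strand) had 87, 91 and 81 counts in WT and 16, 30 and 27 in S6K1-/- libraries. The 3 S6K1-/- values varied more, by 30.8% (CV), but none came near WT, and the log2 fold change was −1.76 (SE 0.20, edgeR adjusted p = 1.57e-05). Over 505 bases its exons overlap genes on the opposite strand, among them CYTOR, a lncRNA known from cytoskeleton and cancer studies. CYTOR had 72, 89 and 76 counts in WT and 20, 25 and 22 in S6K1-/- libraries, a log2 fold change of −1.76 (edgeR adjusted p = 5.77e-06). As the strand setting of the counting is not given, reads of LINC01943 and CYTOR cannot be told apart where they overlap. LINC01943 also has a near-identical copy of 559 bases at 99.1% identity in another lncRNA gene, SOCAR.

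LINC00882 (chr3:106630469-107240671, minus strand) had 89, 103 and 82 counts in WT and 35, 32 and 39 in S6K1-/- libraries. The groups were well apart, with a log2 fold change of −1.30 (SE 0.16, edgeR adjusted p = 4.89e-05). DUBR, a lncRNA on the opposite strand whose exons overlap those of LINC00882 by 106 bases, had 74, 79 and 84 counts in WT and 64, 58 and 63 in S6K1-/- libraries (log2 fold change −0.30, edgeR adjusted p = 0.205).

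**Figure D2:**
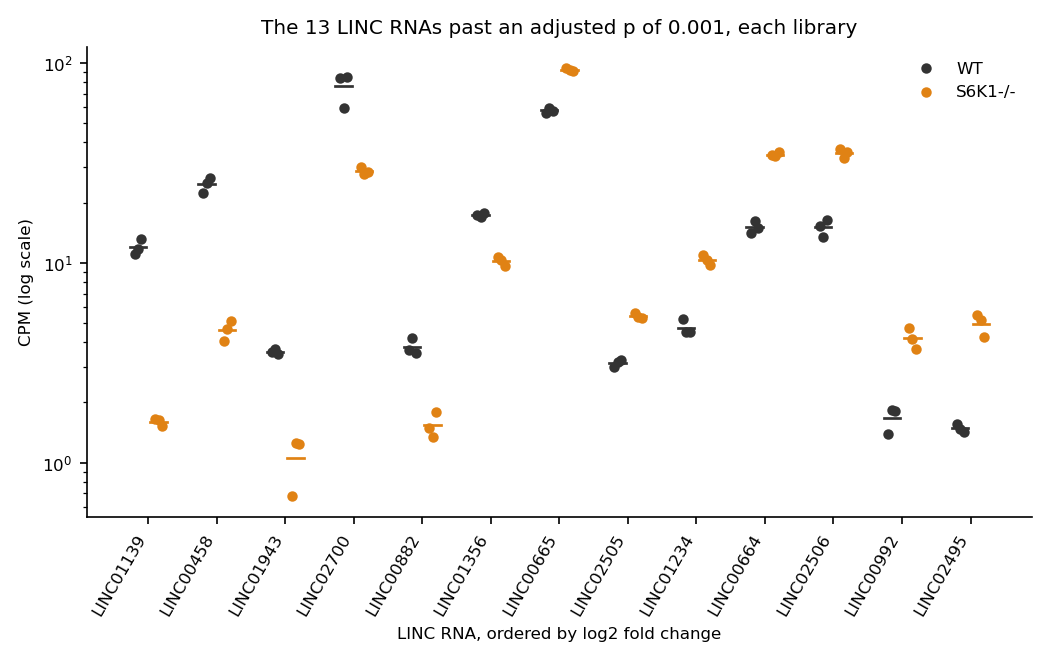
CPM on a log axis for each library of the 13 called LINC RNAs, ordered from the lowest to the highest log2 fold change, with WT in black and S6K1-/- in orange and a bar at each mean of n = 3. In each of the 13 WT and S6K1-/- libraries are apart, which their choice by p-value makes likely. LINC01139 falls from 12.0 to 1.60 CPM, and LINC00665 rises from 57.9 to 92.5 CPM.

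Among the LINC RNAs that rose, LINC00665 was the most abundant. It is a LINC RNA that has been linked to tumour growth and to a small encoded peptide. LINC00665 (chr19:36259540-36331770, minus strand) had 1374, 1470 and 1336 counts in WT and 2207, 2220 and 1979 in S6K1-/- libraries. The groups were clearly separate, at 57.9 ± 1.71 CPM in WT and 92.5 ± 1.55 CPM in S6K1-/- cells (SD, n = 3 each). This was a 1.60-fold increase, with a log2 fold change of 0.68 (SE 0.04, edgeR adjusted p = 2.22e-08). A near-identical copy of 2999 bases at 98.3% identity lies in LINC01535, which had 13 to 28 counts per library.

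LINC00664 (chr19:21483374-21503238, plus strand), in a cluster of zinc finger genes, was higher as well. It had 345, 399 and 346 counts in WT and 812, 818 and 777 in S6K1-/- libraries. Its S6K1-/- values were close together and far above WT, and the log2 fold change was 1.20 (SE 0.06, edgeR adjusted p = 4.17e-09). The zinc finger gene ZNF429, which shares exonic bases on the same strand, had 386, 421 and 344 counts in WT and 483, 520 and 474 in S6K1-/- libraries. It was higher by 0.42 on the log2 scale (edgeR adjusted p = 6.35e-04), and reads in the shared bases could count for either gene.

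On chromosome 4, 3 of the 5 LINC RNAs included were called, all of them higher. Over all genes tested 1.42% were called higher, and 1.7% of those with a mean of at least 50 counts. A share for all genes of chromosome 4 was not computed, so nothing is read from this count. LINC02506 (chr4:31997376-32228543, plus strand) had 373, 329 and 382 counts in WT and 871, 800 and 778 in S6K1-/- libraries. Each S6K1-/- library was above each WT library (log2 fold change 1.24, SE 0.07, edgeR adjusted p = 1.81e-08). LINC02495 had 38, 36 and 33 counts in WT and 128, 124 and 92 in S6K1-/- libraries. That was the steepest increase of the group, 3.34-fold, with a log2 fold change of 1.74 (SE 0.15, edgeR adjusted p = 1.29e-06). LINC02495 met the count rule only through the S6K1-/- libraries, where it is high, so nothing is read from its rank. The symbol LINC02495 matched the GENCODE gene JAKMIP1-DT, a pseudogene by its type, whose short model covers little exonic sequence, and no level per length is given for it. LINC02505 (chr4:36496128-36641939, minus strand) had 73, 78 and 76 counts in WT and 132, 128 and 115 in S6K1-/- libraries. Its groups did not overlap (log2 fold change 0.78, SE 0.11, edgeR adjusted p = 2.24e-04), but the call was lost with the replicate number as a block (edgeR adjusted p = 0.00106) and in 5 of the 6 fits that left out 1 library (all but the fit without WT replicate 2), with an edgeR adjusted p of up to 0.00180.

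LINC01234 and LINC00992 complete the LINC RNAs that rose. LINC01234 (chr12:113583886-113773726, minus strand), which has been studied in gastric and lung cancer, had 127, 111 and 104 counts in WT and 256, 248 and 212 in S6K1-/- libraries. All S6K1-/- values were above the WT values (log2 fold change 1.12, SE 0.10, edgeR adjusted p = 1.16e-06). LINC00992 (chr5:117415509-117546298, plus strand) had 34, 45 and 42 counts in WT and 111, 100 and 81 in S6K1-/- libraries. Here too the groups were apart (log2 fold change 1.33, SE 0.16, edgeR adjusted p = 3.71e-05), but LINC00992 met the count rule only through the S6K1-/- libraries, where it is high.

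The remaining 98 LINC RNAs were not called, with log2 fold changes from −0.69 to 0.67 and a median SE of 0.12. Of these, 29 averaged at least 200 counts, and none of them differed by more than 0.38 on the log2 scale. Between the thresholds of 0.001 and 0.05 there were 12 LINC RNAs, 5 lower and 7 higher. In each of the 12 no S6K1-/- value fell inside the range of WT, which a choice by p-value makes likely with so few libraries. The 5 on the lower side were LINC00632, LINC01405, LINC01184, LINC00472 and LINC00960, and the 7 on the higher side were LINC01833, LINC00884, LINC00337, LINC01508, LINC00698, LINC02367 and LINC02575. LINC01184, for example, had 98, 93 and 107 counts in WT and 62 in each S6K1-/- library (log2 fold change −0.62, edgeR adjusted p = 0.00567). At a threshold of 0.05 in all, 11 LINC RNAs were lower and 14 higher, 25 of 111 or 22.5%, beside 13.8% of all genes tested (8.31% lower and 5.47% higher) and 15.1% of those with a mean of at least 50 counts. Over the 111 LINC RNAs the groups did not overlap in 42, or 37.8%, with S6K1-/- below WT in 22 and above in 20, while this held for 30.7% of all genes tested (16.7% below and 14% above) and 32.7% of those with a mean of at least 50 counts.

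The nearest to the threshold was LINC01833, which lies 2503 bases from SIX3, a transcription factor gene of the forebrain and eye field. LINC01833 had 312, 326 and 311 counts in WT and 396, 422 and 365 in S6K1-/- libraries. The groups did not overlap, and the log2 fold change was 0.38 (SE 0.07, edgeR adjusted p = 0.00106). LINC01833 passed the threshold with DESeq2 size factors in the same fit (edgeR adjusted p = 9.22e-04) and with no filter on low counts (edgeR adjusted p = 9.32e-05), and in the other 9 alternatives it did not. In the fit with no filter its SE was larger than in the main fit, 0.081 against 0.066, although the adjusted p was lower. SIX3 had 657, 731 and 619 counts in WT and 682, 797 and 651 in S6K1-/- libraries (log2 fold change 0.15, edgeR adjusted p = 0.179). The second LINC RNA of the neural and eye list, LINC00599, is the host transcript of the neuronal microRNA miR-124. LINC00599 had 1654, 1667 and 1526 counts in WT and 1644, 1657 and 1456 in S6K1-/- libraries, with overlapping groups (log2 fold change 0.03, SE 0.04, edgeR adjusted p = 0.670). Of the 7 symbols of this list, these were the only ones that reached the count minimum, and 0 were called.

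Of 16 LINC symbols linked to p53, stress or growth, 8 were included and 1 was called, LINC00665. LINC00632, the host transcript of the circular RNA of the CDR1 locus, had 220, 190 and 217 counts in WT and 138, 139 and 137 in S6K1-/- libraries. Its groups did not overlap (log2 fold change −0.54, SE 0.10, edgeR adjusted p = 0.00175), and without WT replicate 2 the edgeR adjusted p was 5.81e-04. For LINC01578, a regulator in cis of the chromatin remodeler gene CHD2, the counts were 519, 547 and 476 in WT and 465, 542 and 475 in S6K1-/- libraries (log2 fold change 0.00, edgeR adjusted p = 0.978), and CHD2 had a log2 fold change of 0.01 (edgeR adjusted p = 0.899). LINC00662 had 924, 943 and 906 counts in WT and 896, 844 and 805 in S6K1-/- libraries (log2 fold change −0.06, edgeR adjusted p = 0.481). The others of this list, LINC00205, LINC00909, LINC00173 and LINC00339, had log2 fold changes between −0.12 and 0.04. A short list of 7 LINC symbols with a known microprotein, which does not hold LINC00665, had 1 symbol at or above the count minimum, LINC00467, with a log2 fold change of 0.12 (edgeR adjusted p = 0.537), the other 6 symbols being under the minimum or not in the table under that name.

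By abundance, 2 of the 10 most abundant LINC RNAs were called, LINC00665 and LINC02700. The 10 with the highest mean CPM were LINC00678, LINC00665, LINC00599, LINC02700, LINC01224, LINC00662, LINC00667, LINC00641, LINC01194 and LINC02067. LINC01224, in a zinc finger gene cluster, had 967, 1098 and 1017 counts in WT and 992, 1086 and 933 in S6K1-/- libraries (log2 fold change 0.03, edgeR adjusted p = 0.818). LINC00667 had 862, 892 and 838 counts in WT and 813, 777 and 763 in S6K1-/- libraries, which did not overlap although the log2 fold change was only −0.08 (edgeR adjusted p = 0.381). The log2 fold changes of LINC00641 and LINC02067 were 0.02 and −0.02. Per kilobase of exonic length LINC00678 stood apart, at 173 CPM per kilobase in WT and 168 in S6K1-/- cells. In WT it was followed by LINC02700 with 24.7, LINC00599 with 10.8, LINC01224 with 10.4 and LINC02067 with 10.0 CPM per kilobase, while 45 LINC RNAs were under 1 CPM per kilobase.

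Just inside the count minimum were LINC02245 with a mean of 50.5, LINC00621 with 51.7 and LINC01232 with 51.8 counts. Just outside it were LINC00668 with 49.7, LINC00672 with 48.2 and LINC00899 with 47.7 counts. LINC00668 had 39, 36 and 30 counts in WT and 62, 71 and 60 in S6K1-/- libraries, which did not overlap.

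Several of the LINC RNAs with the larger differences share sequence with ESRG, an abundant lncRNA of hESCs that is known to derive from HERV-H. Among the 111 LINC RNAs, 7 had an aligned stretch of at least 150 bases at 85% identity or more to the ESRG transcript of 3140 bases in GENCODE 44. That criterion was chosen after the counts had been seen. How the counting assigned reads that match several such copies is not given in the sources used here. The 7 were split in their response. LINC00458, LINC02700, LINC00882 and LINC01356 were lower, LINC00665 was higher, and LINC00678 and LINC-ROR were not called, with a median log2 fold change of −0.76. Of the 104 LINC RNAs without such sequence 2 were lower and 6 higher, with a median of 0.03. Over all genes tested 3.96% were called, and 4.52% of those with a mean of at least 50 counts. As the criterion followed the counts, the difference between the 7 and the 104 was not tested. ESRG itself had 26691, 26700 and 26387 counts in WT and 25515, 26627 and 20351 in S6K1-/- libraries. Only S6K1-/- replicate 3 was clearly lower, and the log2 fold change of ESRG was −0.08 (SE 0.06, edgeR adjusted p = 0.396). In GENCODE 44, 75 genes besides ESRG held a stretch of this kind, of which 19 were tested, the 7 LINC RNAs and 12 others. Among the 12, 1 was lower and 1 higher, with a median log2 fold change of 0.04. The lower one was TRDN, a gene of the muscle calcium release complex, with 563, 520 and 560 counts in WT and 219, 224 and 175 in S6K1-/- libraries (log2 fold change −1.35, edgeR adjusted p = 1.41e-08). ABHD12B was the higher one, by 0.45 on the log2 scale (edgeR adjusted p = 6.28e-04).

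**Figure D3:**
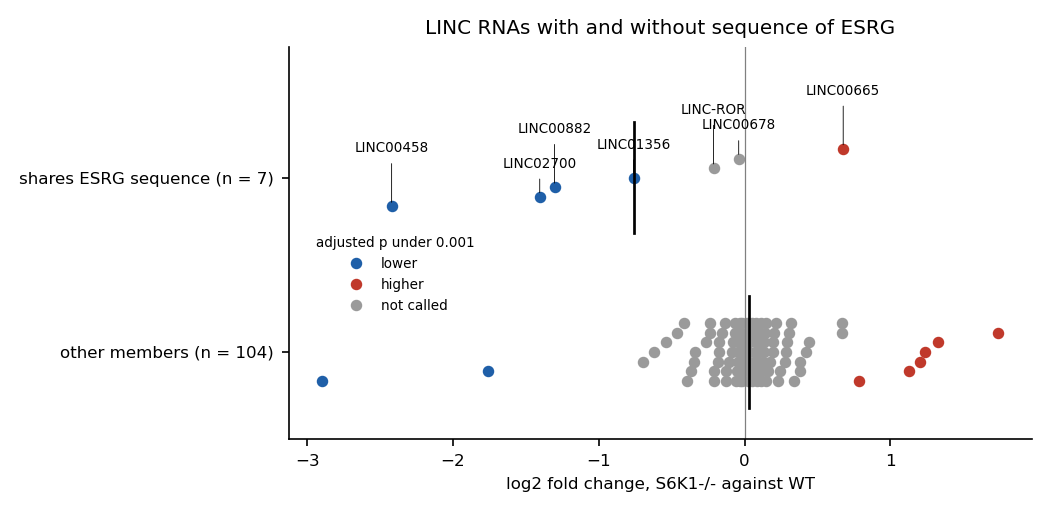
Log2 fold change of S6K1-/- against WT for the 7 LINC RNAs that share sequence with ESRG and for the other 104, coloured by call, with a vertical bar at each median (−0.76 and 0.03) and points shifted vertically for legibility. The 7 range from −2.42 for LINC00458 to 0.68 for LINC00665.

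Positions were taken from GENCODE 44 on GRCh38, in which 108 of the 111 LINC RNAs matched 1 gene, 97 by symbol and 11 by an older name. The 13 called LINC RNAs were on 9 chromosomes. Of these 13, 7 had their nearest protein-coding gene more than 100 kb away and 1 overlapped the body of one. Of the 95 matched LINC RNAs that were not called 13 were more than 100 kb away and 31 overlapped, and the difference was not tested. The exons of 62 of the 108 overlap those of another gene, for 54 on the opposite strand. All 6 LINC RNAs that fell are among the 62, with overlaps from 106 bases in LINC00882 to 607 bases in LINC01356, so that 0 lower and 4 higher ones were left when every LINC RNA with such an overlap was dropped.

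The nearest protein-coding genes of the LINC RNAs were called in a share not far from that of all genes tested. Of 106 such genes 85 could be tested, with 4 lower and 1 higher, or 5.88%, beside 3.96% of all genes tested and 4.52% of those with a mean of at least 50 counts. The number called was 3 without WT replicate 3 or without S6K1-/- replicate 2, and 9 with no filter on low counts. Among the 13 called LINC RNAs, 7 had a neighbour that was tested, and 1 of these was called. This was PCDH7, a protocadherin gene 850571 bases from LINC02506, with 85, 61 and 58 counts in WT and 23, 23 and 21 in S6K1-/- libraries. PCDH7 was lower by 1.54 on the log2 scale (edgeR adjusted p = 7.03e-05), opposite to LINC02506. The abundant neighbours of other called LINC RNAs differed little. SLC16A1, a lactate transporter gene 61204 bases from LINC01356, had a log2 fold change of −0.11 (edgeR adjusted p = 0.0691). The semaphorin gene SEMA6A, 840686 bases from LINC00992, had a log2 fold change of −0.03, and RBM19, 43012 bases from LINC01234, one of 0.09. ZFP14, 2683 bases from LINC00665, had a log2 fold change of 0.12 (edgeR adjusted p = 0.286). PIWIL4, near LINC02700, had 7 to 21 counts per library (log2 fold change −0.73, edgeR adjusted p = 0.224). PLGLB2, near LINC01943, had 6 to 14 counts in 5 libraries and 79 in S6K1-/- replicate 1, and was not called (edgeR adjusted p = 0.112). OLFM4 near LINC00458, ZP4 near LINC01139, CCDC54 near LINC00882, DTHD1 near LINC02505 and JAKMIP1 near LINC02495 had at most 6 counts in any library and were not tested.

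Neighbours of 4 LINC RNAs that were not called passed the test. ZNF717, which overlaps LINC00960 on the opposite strand, had 167, 190 and 191 counts in WT and 52, 60 and 60 in S6K1-/- libraries. It fell by 1.61 on the log2 scale (edgeR adjusted p = 3.41e-07), while LINC00960 had a log2 fold change of −0.34 (edgeR adjusted p = 0.0260). OGFRL1, which overlaps LINC00472 on the opposite strand, fell by 0.47 on the log2 scale (edgeR adjusted p = 1.66e-04), and LINC00472 had 79, 70 and 74 counts in WT and 44, 44 and 44 in S6K1-/- libraries (log2 fold change −0.69, edgeR adjusted p = 0.00547). CTNNA3, a cadherin-linked catenin gene 32168 bases from LINC01515, fell by 1.97 on the log2 scale (edgeR adjusted p = 6.47e-07), with a log2 fold change of −0.04 for LINC01515. LRFN5, far from LINC02315, was higher by 0.84 on the log2 scale (edgeR adjusted p = 2.27e-04), with a log2 fold change of −0.15 for LINC02315.

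Promoter sequence was compared with that of all genes, using RefSeq windows of 300 bases around the start of transcription, of which there were 83 for 69 of the LINC RNAs. The octamer ATGCAAAT, the site of OCT4 and other POU factors, was searched on both strands and was in 2 of the 83 windows (2.41%), against 1.77% of all windows, and in 0 of those of called LINC RNAs. At such a rate the windows of called LINC RNAs were too few for the 0 to be read. The median number of CG dinucleotides was 18 in the windows of LINC RNAs and 14 in all windows. A window was at hand for 8 of the 13 called LINC RNAs (not for LINC00458, LINC01139, LINC02506, LINC02495 and LINC02505), and in these 8 the number of CG dinucleotides ran from 1 in LINC01943 and LINC00992 to 33 in LINC00882.

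Other lncRNA names with a mean of at least 50 counts were set beside the LINC RNAs. Of 357 antisense RNAs (names with -AS) 3 were lower and 4 higher, or 1.96%. Of 30 divergent transcripts (-DT) 0 were called, and of 34 host genes of snoRNAs and microRNAs 2 were lower and 0 higher, or 5.88%. These shares and the 11.7% of the LINC RNAs were not tested against each other.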

How the data were processed

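Poly(A)-selected stranded RNA-seq libraries of undifferentiated H7 hESCs (3 WT, 3 S6K1-/- clone #1) were used. Per their methods, the authors trimmed reads with Trim Galore 0.6.5, aligned them to GRCh38 with Bowtie2 2.4.5, which does not align across splice junctions, and deposited raw counts per gene symbol. Annotation release and strand setting are not given in the sources used here. The authors' own DESeq2 comparison (mean, log2 fold change, SE, statistic, p-values, call) was not used. No column lacked a sample.

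Symbols were kept with edgeR's filterByExpr (19521 of 61155), scaled by TMM and tested for genotype alone with the quasi-likelihood F test of edgeR 4.0.16 (R 4.3.3). Adjustment of p-values was by Benjamini-Hochberg over all genes tested, with 0.001 as the threshold. SEs were derived from the log2 fold change and the F statistic. CPM values used TMM-scaled library sizes. On simulated data, 143 of 152 genes changed by 1 on the log2 scale with a mean of at least 50 counts were called, and 0 unchanged ones.

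The LINC RNAs, the symbol lists and the ESRG criterion were chosen with earlier results of these data known. Named were all called LINC RNAs, the 10 most abundant, listed ones, those next to the count minimum, and neighbours of called ones. Neighbours, overlaps and exonic lengths came from GENCODE 44, ESRG alignments from BLAST 2.17.0 and promoters from RefSeq (GRCh38.p14). DESeq2 1.42.0 was an alternative. Library totals limit precision most for LINC RNAs under 100 counts. Deviations of libraries with the same replicate number correlated at 0.044, 0.011 and 0.043, so the numbers were not taken as pairs. The shared sequences themselves are not reported here.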

Additional observations from a re-analysis of the deposited data

How the results depend on the processing

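The 6 lower and 7 higher LINC RNAs changed most with the threshold, the count rule, the overlap rule and the filter on low counts. At an adjusted p under 0.05, 11 were lower, 14 higher and 13 neighbours called. With a mean of at least 50 counts in both groups 3 were lower, and without LINC RNAs whose exons overlap another gene 0 were lower and 4 higher, as 62 of the 108 matched ones are dropped by construction. With no filter on low counts, 9 were lower, 9 higher and 9 neighbours called, and the cause was not tested. For LINC00665 that fit gave an edgeR adjusted p of 2.31e-40 against 2.22e-08 in the main fit. The SE of LINC00665 was larger there, 0.049 against 0.041, so the calls without the filter are not comparable with the main ones. With DESeq2 size factors 8 were higher, with a mean of at least 20 counts 9 were higher, and with a mean of at least 100 counts 4 were lower and 5 higher. Neighbours called numbered 3 to 5 when 1 library was left out. The lowest count, 3, came without WT replicate 3 and without S6K1-/- replicate 2. The median log2 fold change of the LINC RNAs stayed near 0, at 0.027 with DESeq2 size factors, 0.029 with the DESeq2 Wald test, 0.012 and 0.033 with a mean of at least 20 and 100 counts, 0.028 with 50 in both groups, and 0.012 to 0.045 when 1 library was left out. With the replicate number as a block 6 were lower and 6 higher, and no other call among the 13 was lost than that of LINC02505. Of 374 alternative values for single LINC RNAs, 346 kept direction and side of the threshold, and 18, all from fits without 1 library and of LINC RNAs that were not called, changed sign near 0. Without 1 library the log2 fold change ran from −0.015 to 0.061 for LINC01224, −0.069 to 0.11 for LINC00641, −0.053 to 0.13 for LINC01194, −0.069 to 0.080 for LINC02067, −0.037 to 0.059 for LINC01578, −0.088 to 0.046 for LINC00173, −0.0058 to 0.092 for LINC00909, −0.12 to 0.060 for LINC00339, −0.14 to 0.12 for LINC01232, −0.010 to 0.25 for LINC00621 and −0.0018 to 0.11 for LINC02245. LINC02505 lost its call in 6 and LINC01833 and LINC00632 passed it in 4. In alternatives chosen after seeing the data, 5 were lower and 6 higher without the LINC RNAs that have a near-identical copy, and 6 and 6 without those that lack a single match or match a pseudogene. Counts under 100 limit the detection of small differences for 48 LINC RNAs.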

Other observations

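Below the minimum of 50 counts, 166 further LINC RNAs were tested, of which 0 were lower and 4 higher at an edgeR adjusted p under 0.001. Of all 4777 genes tested with a mean under 50 counts 2.24% were called in either direction. LINC01597, LINC01793 and LINC00923 passed the filter on low counts only through the S6K1-/- libraries, where they are high, so they had to differ, and no p-value is given for them and nothing is read from the count of 4. The 4 are named here after their values were seen. LINC00707 had 21, 17 and 19 counts in WT and 97, 70 and 59 in S6K1-/- libraries, a log2 fold change of 2.04 (edgeR adjusted p = 9.33e-06). For LINC01597 the counts were 7, 3 and 8 in WT and 51, 53 and 57 in S6K1-/- libraries. LINC01793 had no count in WT and 17, 14 and 15 in S6K1-/- libraries. LINC00923 had 0, 1 and 0 counts in WT and 18, 30 and 13 in S6K1-/- libraries. WT and S6K1-/- values were apart in each of the 4, which the way they were picked made likely, and nothing is read from this.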
